A study of Mus musculus with 18 samples.

Results

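Hedgehog signalling was followed through 9 named genes: the ligand Shh, the receptor Ptch1, the decoy receptor Hhip, the transducer Smo, the transcription factors Gli1, Gli2 and Gli3, and the co-receptors Boc and Gas1. They were found by symbol in the deposited table of gene values, which writes them in capitals (SHH, PTCH1, SMO, GLI2, GLI3, HHIP, BOC and GAS1). Of the 31441 genes in that table, these 8 were members, and Gli1 had no row under its symbol. Of these 8, 7 passed the filter on low signal and were tested among 12650 genes. Gas1 did not pass it.

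Total RNA of sorted cells was read on Illumina mouse bead arrays. The cells were derived from embryonic stem cells (mouse, strain J1) with 1 of 3 reporter transgenes on a bacterial artificial chromosome, Hes5::GFP, Pitx3::YFP or Nurr1::GFP, the last named for the protein of the gene Nr4a2. All 3 lines were taken toward a midbrain dopamine neuron fate, and at days 14 to 15 flow sorting split each into positive and negative cells by its reporter. The 6 groups, the positive and negative cells of each line, held 3 arrays each, 18 in all. A sorted fraction is defined by its transgene alone and can hold several cell types. The labels do not say whether the 3 replicates of a group were separate differentiations, so p-values measure only the spread between these arrays, which may be technical.

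In the Hedgehog pathway, secreted Shh binds Ptch1 and so lifts the hold of Ptch1 on Smo, and active Smo turns the Gli factors from repressors into activators. Gli1, Ptch1 and Hhip are themselves induced by this signal and serve as readouts of response, while Shh marks the source. In the ventral midline of the embryonic midbrain, floor plate cells make Shh and also give rise to dopamine neurons.

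The arrays were alike in signal, with a median probe intensity of 40.6 to 60.2 and 33.5% to 37.4% of probes above background. The reporter genes separated each sort: Hes5 was at 9.51 to 11.15 (normalized log2 intensity) in Hes5 negative and 11.96 to 12.47 in Hes5 positive cells, Nr4a2 at 7.19 to 8.54 and 10.32 to 11.02 in the Nurr1 line, and Pitx3 at 4.60 to 5.85 and 7.88 to 10.43 in the Pitx3 line. Some arrays stood apart. In both fractions of Hes5 replicate 1, Th, the enzyme that makes the dopamine precursor, and Lmx1a, a midbrain floor plate factor, were not above background, and they were above it on the other 16 arrays. Pitx3 positive replicate 1 had a summed intensity of 7060 over 6 cycling cell markers, against 202 and 1770 in replicates 2 and 3. Its sum was also high over 7 pluripotent cell markers (8970 against 208 and 980) and 5 fibroblast and stromal markers (710 against 147 and 150). Pitx3 negative replicate 1 was high as well for cycling (12200 against 3190 and 5530) and pluripotent cell markers (7440 against 420 and 872). For fibroblast and stromal markers its sum was 538, against 554 and 258. Hes5 negative replicate 2 is called negative by its title and genotype and positive by its source name, and it had the highest Hes5 level of its group. It was kept as negative. Member calls in the Hes5 sort, and member calls that changed, are also given without it. Calls of marker and other list genes that rest on it are given only with it.

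The promoters of 3 members that were lower together in the Pitx3 positive cells are shown, each running from 250 bases before to 50 bases after the gene's start (RefSeq, GRCm38.p6). That of Ptch1 lies at chr13:63565686-63565985 on the minus strand, that of Gli2 at chr1:119053570-119053869 on the minus strand, and that of Gli3 at chr13:15463473-15463772 on the plus strand. Capitals mark the Gli core ACCACCC, a 7-letter part of the sequence Gli proteins bind, searched on both strands (GGGTGGT on the other).
Ptch1: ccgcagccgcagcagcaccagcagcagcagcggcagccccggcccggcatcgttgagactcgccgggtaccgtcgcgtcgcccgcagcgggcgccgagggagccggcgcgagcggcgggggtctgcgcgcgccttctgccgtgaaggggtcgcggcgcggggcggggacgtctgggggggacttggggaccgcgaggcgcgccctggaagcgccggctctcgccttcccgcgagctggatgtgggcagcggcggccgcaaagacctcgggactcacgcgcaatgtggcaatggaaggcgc
Gli2: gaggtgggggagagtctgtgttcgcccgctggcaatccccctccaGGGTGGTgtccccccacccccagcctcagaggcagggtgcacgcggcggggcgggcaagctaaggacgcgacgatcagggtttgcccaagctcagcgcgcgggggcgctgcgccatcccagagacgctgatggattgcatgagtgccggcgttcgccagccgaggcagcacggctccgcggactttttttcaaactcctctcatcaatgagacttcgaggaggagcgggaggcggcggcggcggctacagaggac
Gli3: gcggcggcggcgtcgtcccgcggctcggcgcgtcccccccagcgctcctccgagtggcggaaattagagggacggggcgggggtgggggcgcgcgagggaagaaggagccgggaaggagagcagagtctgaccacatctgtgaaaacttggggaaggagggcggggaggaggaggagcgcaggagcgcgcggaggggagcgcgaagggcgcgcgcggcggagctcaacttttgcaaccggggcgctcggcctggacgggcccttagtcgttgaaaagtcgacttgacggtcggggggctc
The core was in the Gli2 window alone, on the opposite strand and 205 bases before the start. Windows of Smo, Hhip and Gas1 were also searched and did not hold it, so 1 of 6 members with a window had it, beside 1514 of 32851 mouse promoters of the same length (4.61%). A match here describes letters and says nothing of binding. The 3 printed windows were rich in G and C, at 76.3% for Ptch1, 67.3% for Gli2 and 71.0% for Gli3.

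Shh, the source gene, was above background on 18 of 18 arrays. In the Hes5 line it read 10.56, 12.27 and 11.90 (normalized log2 intensity, replicates 1, 2 and 3) in negative and 8.98, 12.23 and 11.12 in positive cells. In the Nurr1 line the negative cells read 12.47, 12.60 and 12.10 and the positive cells 10.65, 11.55 and 11.52. In the Pitx3 line the negative cells read 12.61, 10.62 and 12 and the positive cells 11.70, 8.11 and 9.67. Shh was therefore lower in the positive than in the negative cells of the same number in 9 of 9 pairs. Hes5 pair 2, which holds the array with conflicting labels, differed by only -0.04. In the deposited gene values, not normalized, that pair ran the other way, at 11.44 in positive and 11.41 in negative cells. Of all genes tested, 15.7%, 29.5% and 30.7% were lower in 3 of 3 pairs in the Hes5, Nurr1 and Pitx3 lines. The fractions did not overlap in the Nurr1 line, and overlapped in the Hes5 and Pitx3 lines, where the numbered pairs lay far apart in level.

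Ordered by group mean, Shh ran from 12.39 ± 0.26 (SD, n = 3) in Nurr1 negative through 11.75 ± 1.02 in Pitx3 negative, 11.58 ± 0.90 in Hes5 negative, 11.24 ± 0.51 in Nurr1 positive and 10.78 ± 1.65 in Hes5 positive to 9.83 ± 1.80 in Pitx3 positive cells. Each group overlapped the next in this order, so no neighbours were separated beyond their spread. The second Shh probe, also above background on 18 of 18 arrays, had mean differences between positive and negative cells of -0.68, -0.84 and -1.39 in the Hes5, Nurr1 and Pitx3 lines. It was lower in positive cells in all 9 pairs, as the probe used was.

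**Figure D1:**
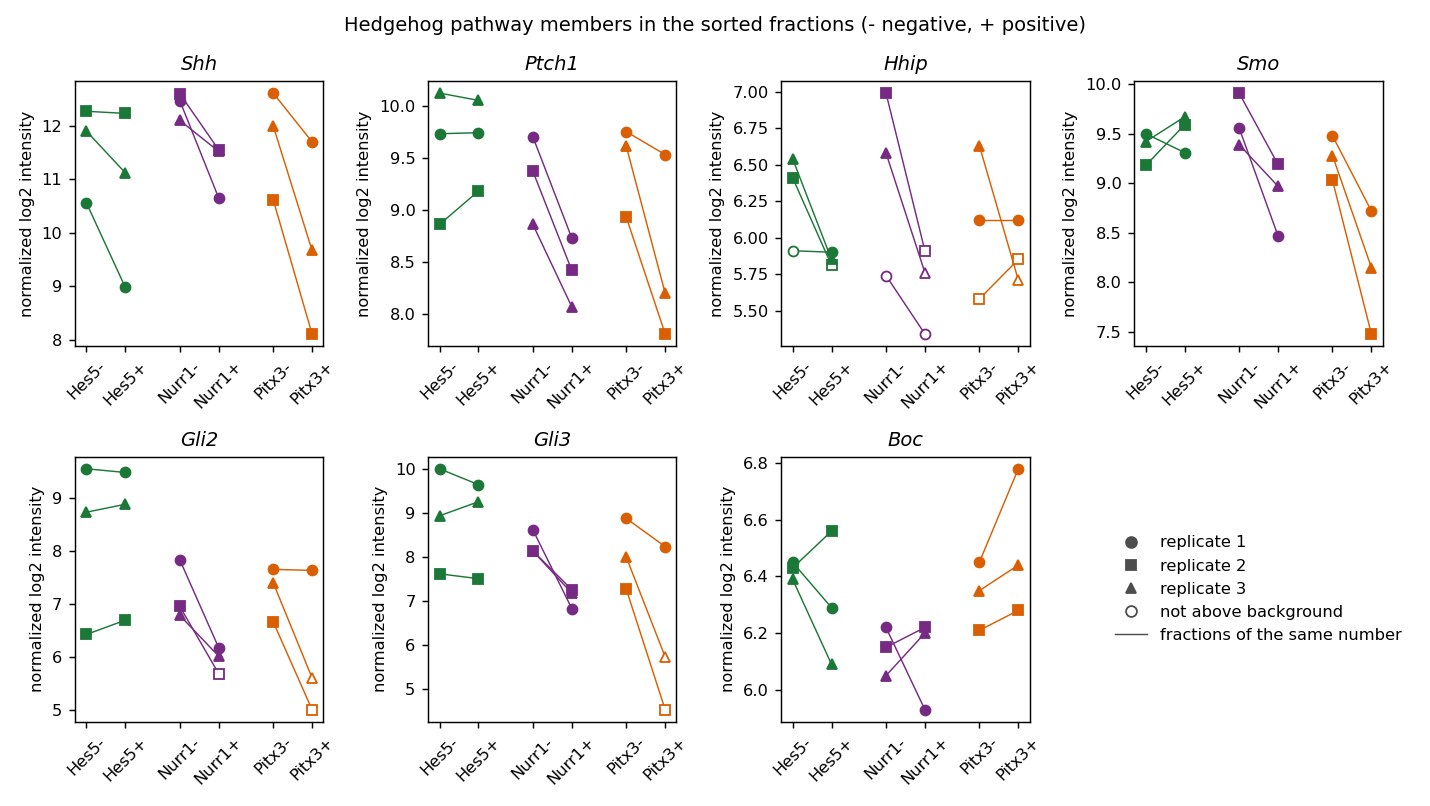
Normalized log2 intensity (vertical axis) of the 7 tested members on each of the 18 arrays, by sorted fraction (horizontal axis: negative - and positive + cells of each line); lines join fractions of the same number, and open symbols are arrays where the probe was not above background. In the Pitx3 line, Shh, Ptch1, Smo, Gli2 and Gli3 all fall from left to right in 3 of 3 pairs, and each gene has its own vertical scale, so heights cannot be compared between genes.

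Ptch1, receptor and response gene at once, was also above background on 18 of 18 arrays. Hes5 negative cells read 9.73, 8.86 and 10.12 and Hes5 positive cells 9.74, 9.18 and 10.05. Nurr1 negative cells read 9.70, 9.37 and 8.86 and Nurr1 positive cells 8.73, 8.42 and 8.07. Pitx3 negative cells read 9.75, 8.93 and 9.61 and Pitx3 positive cells 9.53, 7.81 and 8.20. The Hes5 fractions lay at like levels, the Nurr1 fractions did not overlap, and in the Pitx3 line replicate 1 of the positive cells stayed within the range of the negative cells. A further Ptch1 probe, above background on 9 of 18 arrays, had smaller mean differences between positive and negative cells: 0.16 in the Hes5, -0.40 in the Nurr1 and -0.50 in the Pitx3 line. The 2 probes shared the direction in each line and differed in size.

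Hhip, which binds the ligand outside the cell and is induced by the pathway, was near background and exceeded it on 9 of 18 arrays. Its levels lay between 5.34 and 6.99 in all groups. It was above background on 2 of 3 Nurr1 negative and 0 of 3 Nurr1 positive arrays. The mean of the Nurr1 positive cells was lower by -0.77 (log2), where limma gave a Benjamini-Hochberg adjusted p of 0.568, so this difference was not called. The fractions overlapped, at 5.34 to 5.91 in positive and 5.74 to 6.99 in negative cells. No fold is given, since no Nurr1 positive array was above background. The response genes could not be filled out with Gli1, and a row deposited as GLI, which no table used here ties to Gli1, was above background on 0 of 18 arrays.

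Smo, the membrane protein that passes the signal into the cell, was above background on every array. Hes5 negative cells read 9.50, 9.18 and 9.42 and Hes5 positive cells 9.31, 9.59 and 9.67. Nurr1 negative cells read 9.56, 9.91 and 9.39 and Nurr1 positive cells 8.47, 9.19 and 8.97. Pitx3 negative cells read 9.48, 9.03 and 9.28 and Pitx3 positive cells 8.72, 7.48 and 8.15. Its positive cells lay below all negative cells in the Nurr1 and in the Pitx3 line but not in the Hes5 line. The other two Smo probes had mean differences of -0.01 and 0.10 in the Hes5, -0.76 and -0.71 in the Nurr1, and -1.16 and -1.03 in the Pitx3 line, close to the 0.15, -0.74 and -1.15 of the probe used.

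Gli2, the main activator among the Gli factors, varied more between replicates than between fractions in the Hes5 line. Hes5 negative cells read 9.56, 6.43 and 8.74 and Hes5 positive cells 9.49, 6.70 and 8.89. Nurr1 negative cells read 7.84, 6.96 and 6.79 and Nurr1 positive cells 6.18, 5.69 and 6.02, of which replicate 2 was not above background. Pitx3 negative cells read 7.66, 6.67 and 7.41 and Pitx3 positive cells 7.64, 5.01 and 5.61, of which replicates 2 and 3 were not above background. The positive cells were lower in 3 of 3 pairs in both the Nurr1 and the Pitx3 line, although Pitx3 pair 1 differed by only -0.02.

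Gli3, which acts largely as a repressor where the signal is absent, followed a like pattern. Hes5 negative cells read 10, 7.61 and 8.93 and Hes5 positive cells 9.64, 7.5 and 9.25. Nurr1 negative cells read 8.61, 8.13 and 8.13 and Nurr1 positive cells 6.82, 7.25 and 7.17. Pitx3 negative cells read 8.87, 7.26 and 7.99 and Pitx3 positive cells 8.23, 4.52 and 5.72, of which replicates 2 and 3 were not above background. Nurr1 positive cells lay below all Nurr1 negative cells, while Pitx3 positive replicate 1 lay within the range of the Pitx3 negative cells. The group order by mean put Nurr1 positive (7.08 ± 0.23, SD, n = 3) and Pitx3 positive cells (6.16 ± 1.89) last, after Pitx3 negative cells at 8.04 ± 0.81. A further probe of Gli2 and of Gli3 was not above background on any of the 18 arrays and was not used.

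Of the co-receptors, which help Shh bind Ptch1, Boc was above background on 18 of 18 arrays and lay between 5.93 and 6.78. All groups overlapped the next in order, from 6.50 ± 0.26 in Pitx3 positive to 6.12 ± 0.16 in Nurr1 positive cells (SD, n = 3). Gas1 was above background on 0 of 18 arrays, with a lowest detection p-value of 0.529, so only a bound on its level was measured.

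Within the Hes5 line no member passed the test. Shh had the largest difference between positive and negative cells, -0.80 ± 0.86 (log2, SE, n = 3 a group), and Ptch1, Smo, Gli2, Gli3 and Boc lay between -0.11 and 0.15. None of the 7 members was called by limma at a Benjamini-Hochberg adjusted p under 0.05, where 0.0158% of all genes tested were. No member passed at an unadjusted p under 0.05 either, and pairing the fractions by number left 0 members called (1.23% of all genes). The lowest paired adjusted p was 0.253, for Shh, which was lower in 3 of 3 pairs (15.7% of all genes). Hhip was the 1 member whose fractions did not overlap, with 5.90 in the highest positive and 5.91 in the lowest negative array, beside 4.08% of all genes in that direction.

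Without replicate 2 of the Hes5 negative cells, whose labels conflict, 0 members were called in this sort. Gli2 then differed by -0.79 and Ptch1 by -0.27, in place of 0.12 and 0.08, and neither value passed the test. Markers of other cells moved with this sort: 7 of 7 tested pluripotent cell markers were lower in the Hes5 positive cells, with a median of -2.36, although 0 passed. Their summed intensity ran from 1520 to 21400 in the negative and from 1350 to 2490 in the positive cells. Fibroblast and stromal markers were lower for 5 of 5 tested (median -1.95; sums of 174 to 212 against 594 to 1810), and Lum (-3.08) and Tagln (-0.91) fell in the paired fit. Endoderm markers were lower for 3 of 3, and Cldn6 (-3.33) and Sox17 (-1.10) fell in it. The part of these markers in the members' values was not tested.

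In the Nurr1 line, 6 of 7 members were lower in positive cells in 3 of 3 pairs, and Boc differed by -0.02. Across all genes tested, 29.5% were lower in 3 of 3 pairs. The differences were -1.15 ± 0.86 (log2, SE) for Shh, -0.90 ± 0.43 for Ptch1, -0.77 ± 0.31 for Hhip, -0.74 ± 0.27 for Smo, -1.23 ± 0.82 for Gli2 and -1.21 ± 0.81 for Gli3. For Shh, Ptch1, Smo, Gli2 and Gli3 the fractions did not overlap, 5 of 7 members, beside 11.3% of all genes in that direction. In bulk samples, fewer cells that express a gene and less RNA per cell cannot be told apart.

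None of these differences was called in limma. The Benjamini-Hochberg adjusted p lay between 0.539 for Smo and 0.977 for Boc, with 0.0237% of all genes called, and 2 members had an unadjusted p under 0.05. In the paired fit, which compares fractions of the same number, 6 members had an unadjusted p under 0.05, and the adjusted p ran from 0.0731 for Ptch1 to 0.118 for Shh among the 6, again with none called (0.775% of all genes). This paired count was 3 without Pitx3 pair 1 (Ptch1, Gli2 and Gli3), 2 without Hes5 pair 1 (Ptch1 and Smo) and 1 on the Nurr1 arrays alone (Ptch1). All genes called numbered 135, 1098 and 125 in these settings, against 98 in the main paired fit. The median of the 7 members was -0.90, against -0.02 over all genes. Beside them, 6 of 6 tested cycling cell markers were lower in the Nurr1 positive cells (median -1.22, 0 called), with summed intensities of 2800 to 3030 against 5150 to 9450 in the negative cells. Radial glia and neural stem cell markers were lower for 6 of 6 (median -0.71, 0 called), with sums of 4710 to 18100 against 12000 to 19700. Pluripotent cell markers were lower for 7 of 7 (median -1.80, 0 called; sums of 734 to 1320 against 3440 to 11800) and serotonin neuron markers for 6 of 6 (median -1.63, 0 called). All 7 tested dopamine neuron markers were higher (median 2.55), and 3 of them rose in the paired fit, Th, Pitx3 and Nr4a2, the last being the gene of the sorting reporter. The part of these markers in the result was not tested.

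In the Pitx3 line, 5 of 7 members fell in the reporter-positive cells once fractions were paired by number: the source gene Shh, the response gene Ptch1, the transducer Smo, and Gli2 and Gli3. Over all genes, 8.51% fell and 14.6% changed in either direction in that fit. Shh differed by -1.92 ± 0.37 (log2, SE of the paired fit, n = 3 pairs), which is 3.78-fold lower, Smo by -1.15 ± 0.19, 2.21-fold lower, and Ptch1 by -0.92 ± 0.20, 1.89-fold lower. Gli3 differed by -1.88 ± 0.35 and Gli2 by -1.16 ± 0.31. Both were above background on 1 of 3 Pitx3 positive arrays, so the size of their falls is set in part by background and no fold is given. The limma paired fit gave Benjamini-Hochberg adjusted p of 0.0180 for Shh, 0.0172 for Gli3, 0.0126 for Smo, 0.0228 for Ptch1 and 0.0401 for Gli2. Hhip at -0.22 and Boc at 0.16 were not called.

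The size of these falls differed between pairs. Shh was lower by -0.90, -2.51 and -2.33 in pairs 1, 2 and 3, Gli3 by -0.64, -2.74 and -2.26, and Gli2 by -0.02, -1.66 and -1.80. Ptch1 was lower by -0.22, -1.12 and -1.41 and Smo by -0.76, -1.55 and -1.13. Each of the 5 was lower in 3 of 3 pairs, as were 30.7% of all genes, and pair 1 had the smallest difference of each. Only Smo had fractions that did not overlap, beside 7.56% of all genes in that direction.

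Without the pairing, 0 members were called in the Pitx3 sort (0.443% of all genes), with Smo lowest at an adjusted p of 0.0753, Gli3 at 0.308, Shh at 0.327, Ptch1 at 0.344 and Gli2 at 0.545, and 3 members had an unadjusted p under 0.05. Without Pitx3 positive replicate 1, 3 members fell in this fit, Smo, Gli3 and Ptch1, with Gli3 on no remaining Pitx3 positive array above background. All genes called then numbered 930, against 56 with all arrays. The paired calls rest on 3 pairs: without Pitx3 pair 2 or without pair 3, 0 members passed, and 40 and 15 genes did in all. Gli2 kept its paired call in 7 of 15 settings: the adjusted p was 0.0623 without Hes5 pair 3, 0.0677 without Nurr1 pair 2, 0.091 with no filter on dim probes and 0.11 on the Pitx3 arrays alone. In the authors' table the Gli2 difference was -0.75, with an adjusted p of 0.0509 after quantile normalization and 0.106 without.

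**Figure D2:**
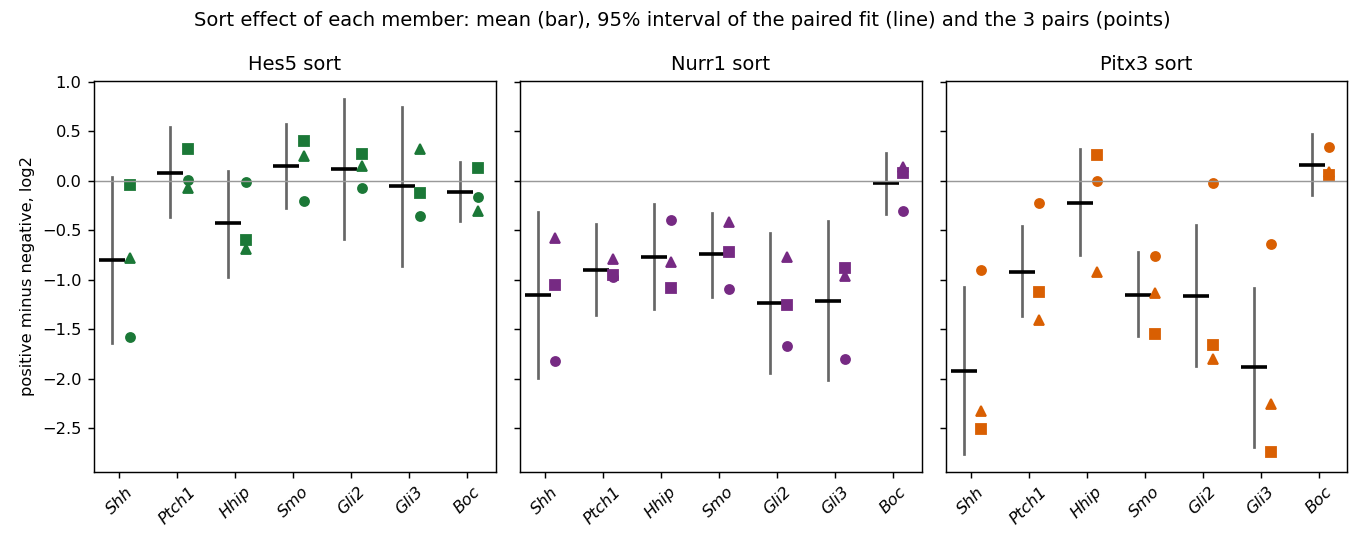
Difference between positive and negative cells (vertical axis, log2 normalized intensity) for each of the 7 tested members (horizontal axis) in the 3 sorts; bars are means, lines the 95% interval of the paired fit and points the 3 pairs. In the Hes5 sort all intervals reach 0, and in the Nurr1 sort 6 members lie below 0 in every pair. In the Pitx3 sort the points of Gli3 and Gli2 spread most.

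In the paired fit the same sort changed cell type markers, where 8.51% of all genes fell and 6.09% rose. All 6 tested cycling cell markers fell in the paired fit (median -2.16), with summed intensities of 202 to 7060 in the Pitx3 positive and 3190 to 12200 in the negative cells. All 6 tested radial glia and neural stem cell markers fell (median -1.86), with sums of 2510 to 11600 against 16100 to 20200. All 6 serotonin neuron markers fell as well (median -3.09), with sums of 697 to 1540 against 6340 to 14800. Of 7 tested dopamine neuron markers, 6 rose (median 3.69), 1 of them Pitx3, whose reporter defined the sort, with sums of 29300 to 81100 against 8270 to 16600, and 1 of 5 tested neuron markers rose. Of 5 tested astrocyte and oligodendrocyte markers 3 fell, and 0 of 7 pluripotent cell, 0 of 5 fibroblast and stromal and 0 of 3 endoderm markers passed. Without the pairing, 0 of the cycling cell, radial glia, serotonin neuron, and astrocyte and oligodendrocyte markers fell. Among the dopamine neuron markers 1 rose without it, Pitx3 itself, and 0 of the neuron markers did. The part of these markers in the fall of the 5 members was not tested.

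The response of Smo to the sort differed between lines. Its Pitx3 difference minus its Hes5 difference was -1.30 ± 0.27 (log2, SE) with an adjusted p of 0.0376 in the limma paired fit, where 3.27% of all genes were called, and it was the 1 member of 7. Without the pairing the adjusted p was 0.252, and no member was called (0.0553% of all genes). In the paired fit Gli3 differed by -1.83 at an adjusted p of 0.0790 and Ptch1 by -1.0 at 0.0889. The Smo call was lost without Hes5 pair 2, which holds the array with conflicting labels, at an adjusted p of 0.0611. It was also lost without Hes5 pair 3, Nurr1 pair 2 or 3, or Pitx3 pair 2 or 3. For the Nurr1 against the Hes5 sort 0 members were called in either fit, with 4 at an unadjusted p under 0.05 when paired, and for the Pitx3 against the Nurr1 sort 0 were called, with 0 unadjusted. All genes called in those 2 contrasts amounted to 0.00791% and 0%, and to 0% in both when paired.

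Each reporter was in its own line, so comparisons of fractions between lines cannot tell the sorted cell state and the line apart. Between the positive fractions, Smo was lower in Pitx3 than in Hes5 positive cells. The difference was -1.41 ± 0.27 (log2, SE, n = 3 a group), 2.65-fold lower, with a Benjamini-Hochberg adjusted p of 0.0139 in limma, and 2.26% of all genes fell. Gli3 at -2.64 ± 0.81 (adjusted p = 0.0718), Gli2 at -2.27 ± 0.82 (0.111) and Ptch1 at -1.14 ± 0.43 (0.122) were lower by more or by a like amount but were not called. Shh at -0.95, Hhip at 0.04 and Boc at 0.19 were not called. The Smo call rests on several arrays: its adjusted p was 0.0558 without Hes5 positive replicate 3, 0.0761 without Pitx3 positive replicate 2, 0.0531 without Pitx3 positive replicate 3, and 0.118 on the arrays of both groups alone.

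Pitx3 positive replicate 1 had high cycling, pluripotent and stromal cell markers, the first 2 also high in Pitx3 negative replicate 1. Leaving out this positive array raised the members called in this comparison from 1 to 4, and all genes called from 545 to 1528. The members added were Gli3, Gli2 and Ptch1 (-1.65). For Gli2 and Gli3 neither remaining Pitx3 positive array was above background, so their differences are then only bounds and are not given. Leaving out Hes5 positive replicate 2 raised the members called to 3, adding Gli3 and Gli2, with 857 genes called in all. Leaving out Hes5 negative replicate 2 raised them to 2, adding Gli3, with 1102 genes called in all. That array is in neither group compared, so the Gli3 difference stayed at -2.64 and only the spread estimated over all groups changed. In the same comparison 6 of 6 radial glia markers were lower, and Sox2 (-2.24), Nes (-2.58) and Slc1a3 (-2.69) fell. Of 7 dopamine neuron markers, all were higher and 4 rose, Th, Ddc, En1 and Pitx3, whose reporter defined the Pitx3 positive cells. Cycling cell markers were lower for 6 of 6 (median -2.91, 0 called), and of the glial markers Olig1 fell (-4.98). The part of these markers was not tested.

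From Hes5 to Nurr1 positive cells, Gli2 was lower by -2.40 ± 0.82 (log2, SE), Gli3 by -1.72 ± 0.81, Ptch1 by -1.25 ± 0.43 and Smo by -0.65 ± 0.27, and for 4 of 7 members the groups did not overlap, with 11.7% of all genes in that direction. Shh ran the other way at 0.47 ± 0.86. The 7 differences gave 0 calls in limma (lowest Benjamini-Hochberg adjusted p 0.230; 0.419% of all genes called), and 3 had an unadjusted p under 0.05. Beside them, cycling cell markers (median -1.74), radial glia markers (-0.92) and serotonin neuron markers (-1.38) were each lower for 6 of 6 with 0 called, 7 of 7 dopamine neuron markers were higher (median 2.37, 0 called), and Olig1 fell (-5.62). Their part was not tested. From Nurr1 to Pitx3 positive cells 3 members were lower and 4 higher, with a median of 0.11: Shh was at -1.41, Gli3 at -0.93, Smo at -0.76, Ptch1 at 0.11, Gli2 at 0.12, Hhip at 0.22 and Boc at 0.38. None was called (0.0158% of all genes), and the 2 with an unadjusted p under 0.05 were Smo and Boc. Boc was the 1 member whose groups did not overlap, beside 4.61% of all genes in that direction. These comparisons share reporter-positive arrays with the others and are not independent of them.

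The negative fractions of the 3 lines gave 0 members called in each of their 3 comparisons and 0 at an unadjusted p under 0.05, with 0.0553%, 0.0158% and 0.0632% of all genes called. Gli2 was at -1.05 in Nurr1 and at -1.0 in Pitx3 against Hes5 negative cells, and Shh at 0.81 and 0.17.

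Shh and the Gli factors did not run in parallel across replicates of the Hes5 line. Averaged over both fractions, Hes5 pair 1 had Shh at 9.77, Gli2 at 9.53 and Gli3 at 9.82, while pair 2 had Shh at 12.25, Gli2 at 6.57 and Gli3 at 7.56. Pair 3 lay between them for all 3 genes, with Shh at 11.51, Gli2 at 8.81 and Gli3 at 9.09. The pair with the least Shh thus had the most Gli2 and Gli3, and it was the pair in which Lmx1a and Th were not above background. In the Pitx3 line the order was the same for both genes: pair 1 had Shh at 12.15 and Gli3 at 8.55, pair 3 had 10.84 and 6.85, and pair 2 had 9.37 and 5.89. The Nurr1 pairs were close together, with Gli3 at 7.72, 7.69 and 7.65 and Shh at 11.56, 12.08 and 11.81.

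**Figure D3:**
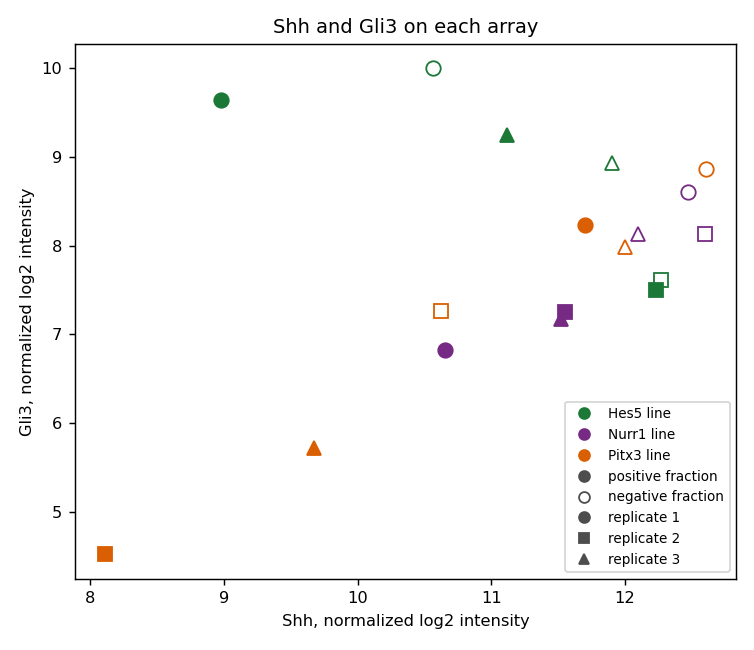
Normalized log2 intensity of Shh (horizontal axis) and Gli3 (vertical axis) on each of the 18 arrays, by line (colour), fraction (filled for positive, open for negative) and replicate (shape). The Hes5 arrays run from high Gli3 with low Shh to low Gli3 with high Shh, and the Pitx3 arrays run from low to high in both; in the lowest 2 Pitx3 positive arrays Gli3 was not above background.

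Across all 18 arrays Gli2 and Gli3 had a Pearson r of 0.92, Ptch1 had 0.90 with Gli2 and 0.88 with Gli3, and Smo had 0.82 with Gli3. Shh had 0.11 with Gli2, 0.41 with Gli3 and 0.40 with Ptch1, and 0.71 with Smo. The arrays share lines and sorts, so these values describe the set and carry no p. Among 9048 genes compared, the patterns most like that of Shh over the 18 arrays were those of Tmem47 (r = 0.937), Pltp (0.919), Nedd9 (0.918) and Ccdc3 (0.916). The most like Ptch1 were Col2a1 (0.951), Incenp (0.949), Cdkn3 (0.945) and Ddx11 (0.944). The most like Gli3 were Rrm2 (0.973), Uhrf1 (0.969), Bub1b (0.969) and Fignl1 (0.967).

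Of 26 listed genes that release, receive or relay the signal, 17 were tested, and in the paired Pitx3 sort 3 fell and 1 rose, where 8.51% of all genes fell and 6.09% rose. Their median was 0.12, against 0.01 over all genes. Lrp2, an endocytic receptor that takes up Shh, fell from 9.15, 7.84 and 8.62 in Pitx3 negative to 7.88, 4.70 (not above background) and 6.16 in Pitx3 positive cells, by -2.29 (adjusted p = 0.0180, limma). Evc and Evc2, which work with Smo at the cilium, fell by -1.16 and -1.36 (adjusted p = 0.0192 and 0.0203). Evc was not above background on Pitx3 positive replicates 2 and 3, so the size of its fall is set in part by background. Arrb2, an arrestin that can bind Smo, rose by 0.58 (0.0284), and it also rose by 0.75 from Hes5 to Pitx3 positive cells (0.0422). Without the pairing 0 of the 17 were called in the Pitx3 sort. In the Hes5 and Nurr1 sorts 0 of the 17 passed in either fit.

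Genes placed downstream of Shh in ventral neural tissue moved in both directions. Of 13 listed, 10 were tested, and 3 fell and 1 rose in the paired Pitx3 sort (median -0.39), beside the same shares of all genes, 8.51% and 6.09%. Nkx2-2, a homeobox factor of ventral progenitors that requires Shh, read 10.25, 10.19 and 11.02 in Pitx3 negative and 8.52, 6.79 and 8.06 in Pitx3 positive cells. The groups did not overlap, beside 7.56% of all genes in that direction. Nkx2-2 fell by -2.70, with an adjusted p of 0.0211 in limma without pairs and 0.00641 with them. It also fell by -2.93 from Hes5 to Pitx3 positive (adjusted p = 0.00584) and by -2.98 from Hes5 to Nurr1 positive cells (0.0081).

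Ccnd1, a cyclin that drives entry into the cell cycle, fell by -2.41 (adjusted p = 0.0180, limma) and Nkx6-2, another ventral progenitor factor, by -1.34 (0.0311) in the paired Pitx3 sort. On Pitx3 positive replicate 2 Nkx6-2 was not above background (5.87). Without the pairing neither gene was called in this sort, at adjusted p of 0.121 for Ccnd1 and 0.149 for Nkx6-2. Foxa2, a floor plate factor that dopamine neurons keep, rose by 0.94 (0.0198), from 9.37, 8.58 and 8.97 to 9.86, 9.78 and 10.11. Its adjusted p without the pairing was 0.436. Foxa2 and Shh thus moved in opposite directions in this sort. Among 8 listed dorsal and intermediate genes that Hedgehog holds down, 4 were tested: Irx3 fell by -0.78 in the paired Pitx3 sort (0.0361) and rose by 1.51 in the paired Hes5 sort (0.0281), and the other tested members did not pass in a sort. Without the pairing Irx3 was not called in either sort, at 0.422 and 0.576.

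The floor plate list, which includes Shh itself, held 13 genes, of which 11 were tested, and in the paired Pitx3 sort 4 fell and 2 rose (median -0.30), beside 8.51% and 6.09% of all genes. Spon1, a secreted floor plate protein, fell by -2.32 (adjusted p = 0.0146, limma) and Sulf1, which trims sulfate groups from heparan sulfate, by -1.56 (0.0213). On Pitx3 positive replicate 2 Spon1 was not above background (5.18). Corin, a membrane protease found in the midbrain floor plate, fell by -1.36 (0.0455). Lmx1a rose by 1.99 (0.0116), from 9.98, 10.07 and 10.29 to 11.83, 12.13 and 12.35, with no overlap, beside 9.3% of all genes in that direction. Without the pairing 0 of the 11 tested genes were called in this sort, with an adjusted p of 0.561 for Lmx1a and 0.11 for Spon1. Spon1, Sulf1 and Corin thus fell with Shh, and the transcription factors Foxa2 and Lmx1a rose.

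**Figure D4:**
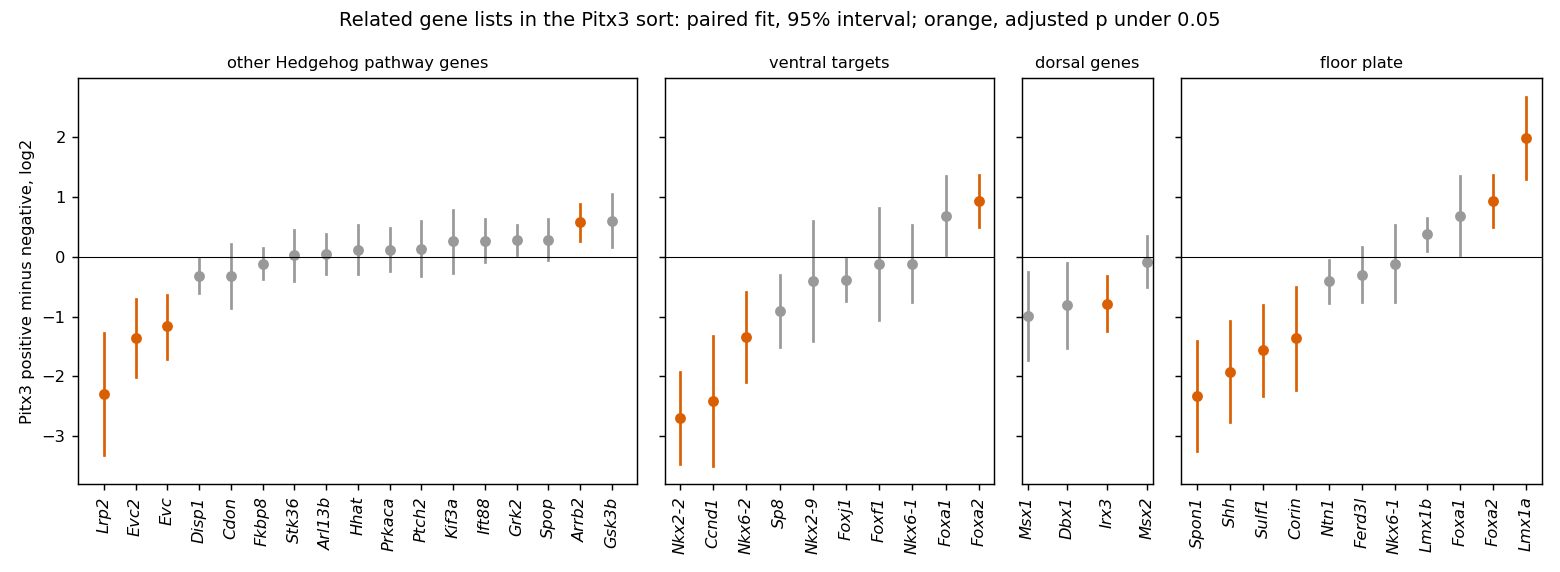
Difference between Pitx3 positive and negative cells (vertical axis, log2 normalized intensity) for the tested genes of the 4 related lists (horizontal axis), with the 95% interval of the paired fit; orange marks an adjusted p under 0.05. Lrp2, Evc2, Evc, Nkx2-2, Ccnd1, Nkx6-2, Irx3, Spon1, Shh, Sulf1 and Corin lie below 0, and Arrb2, Foxa2 and Lmx1a above it; Foxa1, Foxa2 and Nkx6-1 stand in 2 lists.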

How the data were processed

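Per the file headers, the deposited scanner table holds a mean bead intensity for 45281 probes on each array, neither background-corrected nor normalized, a detection p-value and a bead count (mean 42.8 to 44.2 per array); 18 columns of it were not used here. The deposited table of gene values holds log2 intensity for 31441 genes. GenomeStudio and Partek are the tools listed, without version or settings, per the submitters' processing notes. The scanner table carries no gene names, so a gene was matched to those 1, 2 or 3 probes whose mean intensity, as log2 and with no normalization, equals its deposited value on all 18 arrays, which placed 30328 genes (96.5%). Symbols were updated through RefSeq names (13415 as symbols, 5594 as synonyms, 12432 kept as deposited).

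Background correction and quantile normalization used neqc at an offset of 16 in limma 3.58.1 under R 4.3.3, with data.table at version 1.17.8. Probes needed a detection p-value under 0.01 on at least 3 arrays; 18737 passed, 2503 of them without a gene, and the brightest passing probe by mean stood for its gene, which gave 12650 genes. "Above background" means a detection p-value under 0.01. Two-sided limma tests (eBayes after lmFit) came from a single model of the 6 groups with 12 residual degrees of freedom, with Benjamini-Hochberg adjustment over all genes tested and calls at an adjusted p under 0.05. The labels do not say that equal numbers mark 1 sort. Deviations from the group means correlated at 0.44 to 0.77 in the 9 same-number pairs and at -0.64 to 0.17 in 18 different-number combinations, so the numbers were taken to pair the fractions, and a paired fit (6 residual degrees of freedom) is given where it changes a call.

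The members, gene lists and tests were chosen with earlier results of these data known. All members were named whatever their values; other genes were named when they passed in a comparison (at most 6 a list) or as the 4 with the highest Pearson r to Shh, Ptch1 or Gli3. The same was not done for Gli1, which has no row. Marker lists covered radial glia, cycling cells, neurons, dopamine and serotonin neurons, pluripotent, stromal, endoderm and glial cells. Alternatives were other normalizations, no background correction, no filter, the mean of a gene's probes, the arrays of the compared groups alone, the replicate block and leaving out each array or pair. An array or pair outside the groups compared enters a test only through the spread estimated over all groups, so leaving it out does not change the difference. The fits were tested on simulated data. Promoter windows came from RefSeq (GRCm38.p6), and no genome was used here. Precision is limited by the 3 arrays per group. Python 3.11.15 with numpy 2.4.6, pandas 2.3.3, numba 0.67.0 and matplotlib 3.10.9 served for matching and plots.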

Additional observations from a re-analysis of the deposited data

Results flagged for a closer look

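Smo was the member whose response to a sort differed between lines by a test of the difference itself. Its Pitx3 sort difference minus its Hes5 sort difference was -1.30 (log2, paired limma fit, adjusted p = 0.0376). Smo was lower in Pitx3 positive cells in 3 of 3 pairs and in Hes5 positive cells in 1 of 3. The adjusted p ran from 0.0252 to 0.15 over the 15 other settings of the paired fit, of which 5 kept the call, and was 0.252 without the pairing.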

How the results depend on the processing

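Pairing by number (the replicate block) raised the members called from 0 to 5 in the Pitx3 sort and from 0 to 1 in the Pitx3 minus Hes5 sort effect, and changed no other member count; over all genes it raised the calls from 2 to 156, 3 to 98 and 56 to 1846 in the Hes5, Nurr1 and Pitx3 sorts. The paired fit was also run under the other settings, an addition chosen after seeing the data. On the arrays of the compared groups alone, calls were 0 for Pitx3 against Hes5 positive cells, and in the paired fit 1 in the Nurr1 sort (Ptch1), 2 in the Pitx3 sort and 0 for the Pitx3 minus Hes5 effect, where fewer arrays enter. That last paired count was also 0 in the authors' table without normalization, with no filter on dim probes and with the mean of a gene's kept probes; the cause was not tested. All genes called for Pitx3 against Hes5 positive cells numbered 545, 336 with no filter, 344 in the unnormalized authors' table and 4 on those arrays alone; in the paired Pitx3 sort 1846, 1024, 991 and 1358. Leaving out 1 array, members called ran from 0 to 3 (Pitx3 sort), 0 to 4 (Pitx3 against Hes5 positive) and 0 to 1 (Pitx3 minus Hes5). All genes called then ran from 0 to 930, 78 to 1528 and 0 to 139. Leaving out 1 pair, members called ran from 0 to 3 (Nurr1 sort), 0 to 5 (Pitx3 sort) and 0 to 4 (Pitx3 minus Hes5). All genes called then ran from 0 to 1098, 15 to 2965 and 0 to 658.

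Reversed differences were uncalled and mostly near 0. In the authors' table, quantile normalized, Boc was at 0.05 (Hes5 sort), 0.14 (Nurr1 sort) and 0.02 (Nurr1 against Hes5 positive). Without normalization Boc was at 0.04, 0.10 and 0.02 in these, -0.04 for Pitx3 against Nurr1 positive and -0.02 against Hes5 positive; Hhip was at -0.01 and -0.14 in the last 2 and Ptch1 at -0.15 (Pitx3 against Nurr1 positive). There the median of all genes lies at up to -0.189. Leaving out 1 array, the Hes5 sort ran from -0.79 to 0.95 for Gli2, -0.67 to 0.60 for Gli3, -0.27 to 0.36 for Ptch1 and -1.53 to 0.10 for Shh, and the Nurr1 sort from -0.08 to 0.07 for Boc. The Pitx3 sort ran from -0.48 to 0.04 for Hhip, Nurr1 against Hes5 positive from -0.43 to 1.19 for Shh, Pitx3 against Nurr1 positive from -0.65 to 0.66 for Gli2 and -0.40 to 0.46 for Ptch1, and Pitx3 against Hes5 positive from -0.08 to 0.13 for Hhip. A slide block was not run, since the files used here give no slides. Signal limits Gas1 and the GLI row on every array, Hhip on 9 of 18, and Gli2 and Gli3 on 2 of 3 Pitx3 positive arrays (Gli2 also on 1 Nurr1 positive array).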
